A study of Mus musculus with 8 samples.

Results

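Acetylation of histone H3 at lysine 9 (H3K9ac) was compared between BM cells of vehicle-treated *GFI1-KD* and *GFI1-36S*, *NUP98-HOXD13-tg* mice. The comparison addresses how the mark is distributed when GFI1 is low and no curcumin is given. The members are the H3K9ac peaks of the sample labelled *GFI1-KD* without curcumin and of the sample labelled *GFI1-36S* without curcumin, which are 39272 and 41312 peaks, together 80584 of the 220499 peaks in the 6 lists of the series. All mice were C57BL/6 and carried the Nup98-HOXD13 transgene, a fusion gene used as a model of MDS that progresses to AML, and the promoter that drives it is not given in the sources used here. Per the paper, *GFI1-36S* mice express the common serine form of GFI1 from a human cDNA placed in the mouse locus. They served as the control genotype, whereas *GFI1-KD* mice express GFI1 at a reduced level. Both groups received vehicle, and the curcumin-treated mice of the other libraries received 20 mg/kg each week. The labels give the material as whole BM cells and the study's methods as frozen BM cells, whereas a figure legend of the study speaks of c-kit+ cells. They were taken from mice killed with leukaemia or failing health. The age and sex of the mice and how many contributed to a library are not stated in the labels.

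Each group was 1 library, so the differences below could not be set against a spread between mice and carry no test. The names of the deposited lists give the treatments of the 2 *GFI1-36S* libraries the other way round from the sample titles. The titles decided the groups here, and the promoter rank differences given below were also computed with the 2 libraries exchanged. The library labelled *GFI1-36S* with curcumin stands apart from the rest, with 20354 peaks, no peak at 22 of the 22 promoters of neutrophil genes that had one in either vehicle library, 3 peaks on the Y chromosome and none at *Xist*. The 2 vehicle libraries had no Y peak, and at *Xist* 1 peak in *GFI1-KD* and 2 in *GFI1-36S*. The list names also write kdkd for the *GFI1-KD* mouse and +ki for the *GFI1-36S* mouse, which the labels do not explain.

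GFI1 is a zinc finger repressor that recruits histone deacetylases and the demethylase LSD1 to its sites, where H3K9ac is removed. It is required for neutrophil formation, restrains stem cell cycling and holds down monocyte, macrophage and *Hox* programmes in early myeloid cells. H3K9ac itself sits on the nucleosomes that flank active transcription start sites (TSSs) and on active enhancers. A peak is a stretch in which the immunoprecipitated DNA exceeded its local background, and its fold enrichment is that excess at the summit. Fold enrichment is not normalized between libraries, so each peak was ranked from 0 to 100 within its own list. A promoter, the 1 kb up- and downstream of every TSS of a protein-coding gene, took the rank of its strongest overlapping peak and 0 where no peak was listed, which does not mean that the mark is absent. Differences are given in points of rank as *GFI1-KD* minus *GFI1-36S*. The word peak refers to this window unless a distal site is named. In bulk BM, fewer cells of a type and less acetylation per cell cannot be told apart.

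The comparison turns on a few loci, of which 4 promoters and 3 distal sites are shown as 300 bases of the mm10 (GRCm38) sequence, 5′ to 3′. Capitals mark matches on either strand to the letters of 5 motifs. The core of the GFI1 motif is AAATCAC. The motif of the erythroid GATA factors is AGATAA. That of the RUNX factors, which act in stem cells, is TGTGGT. The myeloid factor PU.1 was searched as AGGAAGT, and the granulocyte C/EBP factors as TTGCNNAA. These short motifs are common: of all RefSeq mouse promoters of the same length, 3.20% hold the GFI1 core, 11.2% the GATA, 16.8% the RUNX, 9.35% the PU.1 and 10.8% the C/EBP motif. The promoters, each 250 bases before to 50 after the start in RefSeq, were chosen as a late neutrophil gene (*Ltf*, chr9:111019042-111019341, plus strand), a granulocyte alarmin (*S100a8*, chr3:90668821-90669120, plus strand), a leukaemia-associated homeobox gene (*Hoxa9*, chr6:52227321-52227620, minus strand) and its partner (*Meis1*, chr11:19018920-19019219, minus strand).
Ltf: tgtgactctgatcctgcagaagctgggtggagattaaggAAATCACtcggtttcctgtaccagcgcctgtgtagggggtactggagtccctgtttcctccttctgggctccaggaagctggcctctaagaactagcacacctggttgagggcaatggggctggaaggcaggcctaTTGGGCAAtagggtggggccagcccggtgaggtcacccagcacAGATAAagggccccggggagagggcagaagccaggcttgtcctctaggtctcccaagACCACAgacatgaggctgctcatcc
S100a8: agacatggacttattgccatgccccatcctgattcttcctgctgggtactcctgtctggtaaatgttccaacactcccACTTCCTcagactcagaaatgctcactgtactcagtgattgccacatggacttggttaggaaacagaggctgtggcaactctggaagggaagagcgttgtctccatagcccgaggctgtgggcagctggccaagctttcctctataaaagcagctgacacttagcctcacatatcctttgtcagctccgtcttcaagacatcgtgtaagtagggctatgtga
Hoxa9: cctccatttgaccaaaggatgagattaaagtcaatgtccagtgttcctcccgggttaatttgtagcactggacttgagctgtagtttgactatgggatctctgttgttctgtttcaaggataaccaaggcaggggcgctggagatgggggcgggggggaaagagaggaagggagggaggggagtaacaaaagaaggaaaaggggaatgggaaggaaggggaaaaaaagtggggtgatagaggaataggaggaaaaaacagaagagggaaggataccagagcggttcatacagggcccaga
Meis1: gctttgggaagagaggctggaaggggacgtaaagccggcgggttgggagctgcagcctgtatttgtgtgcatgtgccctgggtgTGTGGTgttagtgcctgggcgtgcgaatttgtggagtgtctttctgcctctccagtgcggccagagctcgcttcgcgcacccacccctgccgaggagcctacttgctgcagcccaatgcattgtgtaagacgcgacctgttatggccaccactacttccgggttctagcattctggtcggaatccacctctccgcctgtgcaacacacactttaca
The *Ltf* window lay wholly under a peak in *GFI1-KD* and for 143 of its 300 bases in *GFI1-36S*, and it holds the GFI1 core at position 40. The *S100a8* and *Meis1* windows lay under a peak in *GFI1-KD* alone, although *S100a8* had a *GFI1-36S* peak further downstream. The *Hoxa9* window, which holds none of these motifs, lay under a peak in *GFI1-36S* alone.

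The distal sites were chosen as the highest-ranked site of each library that the other lacked and a broad one. They lie in an intron of *Crtac1* with *Golga7b* as the nearest promoter (chr19:42306519-42306818), upstream of *Pum2* (chr12:8640793-8641092) and in an intron of *Hoxc5* (chr15:103000622-103000921), each centred on the summit and read on the plus strand.
Golga7b: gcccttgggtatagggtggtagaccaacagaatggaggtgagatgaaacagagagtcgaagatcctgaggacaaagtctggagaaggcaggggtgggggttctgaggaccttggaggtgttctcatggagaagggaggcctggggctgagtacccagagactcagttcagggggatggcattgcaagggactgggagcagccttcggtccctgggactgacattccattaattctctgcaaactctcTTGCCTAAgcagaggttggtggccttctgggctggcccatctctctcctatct
Pum2: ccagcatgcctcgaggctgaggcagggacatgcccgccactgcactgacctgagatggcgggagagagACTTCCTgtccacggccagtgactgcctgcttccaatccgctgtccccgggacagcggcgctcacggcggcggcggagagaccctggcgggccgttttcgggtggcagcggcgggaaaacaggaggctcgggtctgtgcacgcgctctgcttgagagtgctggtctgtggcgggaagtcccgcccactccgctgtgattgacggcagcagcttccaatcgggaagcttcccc
Hoxc5: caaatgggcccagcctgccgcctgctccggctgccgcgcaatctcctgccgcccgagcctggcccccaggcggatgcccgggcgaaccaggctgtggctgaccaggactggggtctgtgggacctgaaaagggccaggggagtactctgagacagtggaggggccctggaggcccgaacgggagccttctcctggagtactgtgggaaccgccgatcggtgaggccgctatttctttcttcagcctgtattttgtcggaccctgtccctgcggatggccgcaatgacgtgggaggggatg
The *Golga7b* site was listed in *GFI1-KD* and the *Pum2* and *Hoxc5* sites in *GFI1-36S*.

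The targeted gene was examined first. *GFI1-36S* mice carry a human cDNA in this locus, and its part in the values below was not tested. *Gfi1* had a broad peak of 4575 bp in *GFI1-KD* (chr5:107722779-107727353) that spans its TSSs, and its rank was 78.1 against 76.7 in *GFI1-36S*. The ranks in the other libraries were between 74.1 and 86.3. The summit held 96 fragments in *GFI1-KD* and 64 in *GFI1-36S*, a scaled ratio of 1.10 with a 95% interval of 0.803 to 1.54. The interval, as all those given here, covers counting error only. The ratio, as all fragment ratios below, is divided by the median ratio of 1.36 over 10538 promoters. Each ratio takes the summits of the strongest overlapping peaks, which can lie outside the window and at different positions. The depths of the 2 libraries relative to the control had a ratio of 1.06, so the scaling is not by depth alone. It also takes out a difference shared by most promoters. On this scale the interval includes 1, and H3K9ac does not measure the transcript or the protein. Within 60 kb, 11 distal sites had *Gfi1* as the nearest promoter, of which both libraries listed 3, *GFI1-KD* alone 5 and *GFI1-36S* alone 3. With the summit required inside the window, *Gfi1* turned to −76.7 points. *Gfi1b*, its erythroid and megakaryocytic paralogue, ranked 71.9 and 71.6.

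Both libraries were of similar size. Whole fragment counts at the summits were recovered for 98.6% of the peaks of *GFI1-KD* and 99.9% of those of *GFI1-36S*, with a median of 34 and 28 fragments per summit. The *GFI1-KD* peaks were wider, with a median of 634 bp against 506 bp, and covered 42.0 Mb against 36.8 Mb. Peaks of at least 4 kb numbered 977 in *GFI1-KD* and 520 in *GFI1-36S*. At promoters with a peak in both libraries, the *GFI1-KD* peak was the wider one in 66.8% of the genes. Around the TSS, the share of genes under a peak reached 49.2% at 175 bp downstream in *GFI1-KD* and 47.4% at 211 bp in *GFI1-36S*. Over the whole window, 38.2% of the bases lay under a peak in *GFI1-KD* and 36.3% in *GFI1-36S*. The part of peak calling or depth in these widths was not tested.

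**Figure D1:**
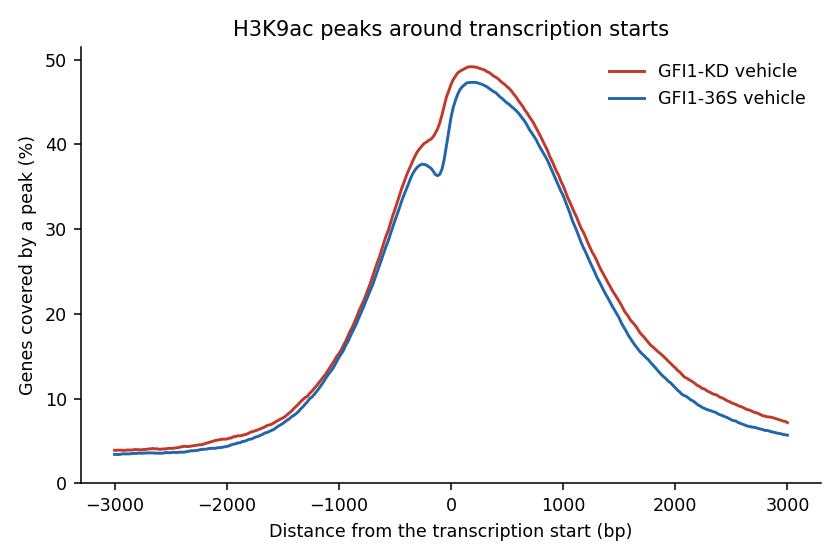
Share of 21938 protein-coding genes under an H3K9ac peak (y axis, percent) by distance from the TSS (x axis, bp), with 1 line for each vehicle library. The *GFI1-KD* line reached 49.2% and the *GFI1-36S* line 47.4%, both downstream of the TSS.

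Most promoters ranked alike. Of 21938 genes, 11766 had a promoter peak in *GFI1-KD* and 11377 in *GFI1-36S*, and 11125 had one in both. Among those 11125 genes, 78.2% differed by at most 5 points, and the median difference was −0.17 points. A peak was listed in *GFI1-KD* alone at 641 promoters, or 5.33% of the 12018 with a peak in either library, and in *GFI1-36S* alone at 252, or 2.1%. *GFI1-KD* thus held 71.8% of the promoters listed in 1 library alone, with a Wilson 95% interval of 68.7% to 74.6%. These were weak peaks, with a median rank of 42.3 in *GFI1-KD* and 36.2 in *GFI1-36S*, against 87.1 and 87.5 at promoters with a peak in both. At 20 of the 641 and 12 of the 252, the peak overlapped a peak of the other library outside the promoter window.

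A difference of at least 15 points was used throughout to call a promoter ranked higher or lower. By this margin, 959 promoters ranked higher in *GFI1-KD*, or 7.98%, and 398 ranked lower, or 3.31%. The split depended on the scale: ranked among promoter peaks alone, 743 were higher and 737 lower. Where both libraries listed a peak, the percentiles 5 and 95 of the difference were −7.39 and 10.9 points. The median difference per chromosome lay between −0.77 and 0.45 points over 20 chromosomes. Of the 641 promoters listed in *GFI1-KD* alone, 29.8% had a peak in the *GFI1-KD* curcumin library, 28.4% in *GFI1-36N* vehicle, 46.5% in *GFI1-36N* curcumin and 12.2% in the library labelled *GFI1-36S* curcumin. For the 252 in *GFI1-36S* alone, the shares were 25.4%, 44.0%, 68.3% and 16.7%.

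**Figure D2:**
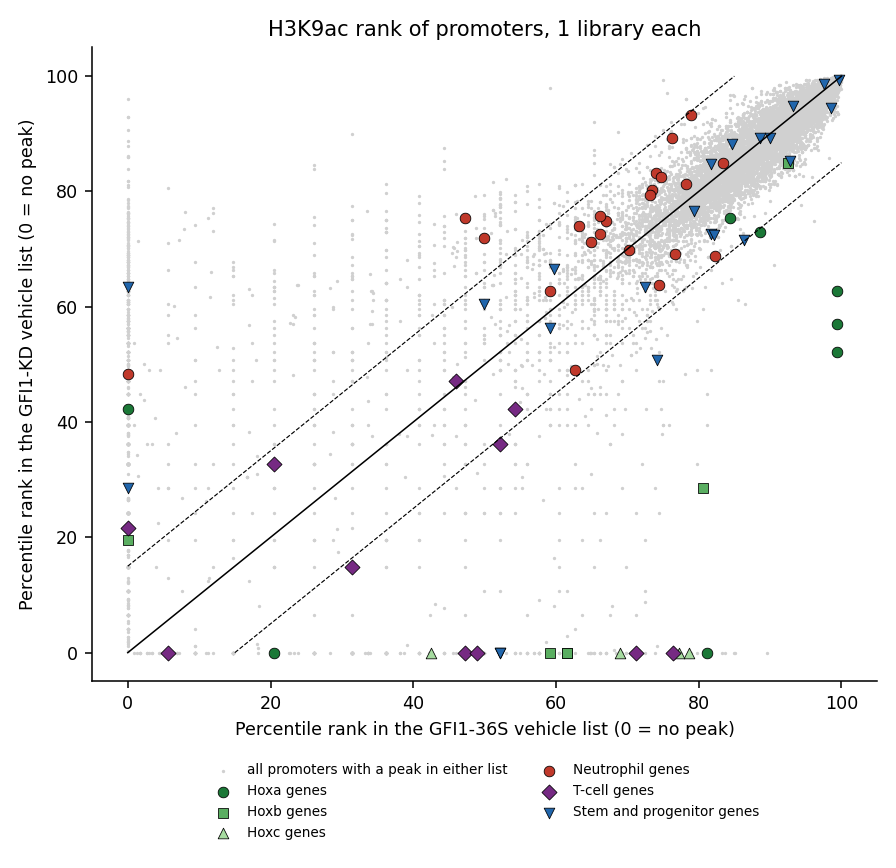
Rank of the strongest promoter peak of each gene in *GFI1-36S* vehicle (x axis) against *GFI1-KD* vehicle (y axis), from 0 for no peak to 100 for the highest fold enrichment of a list. Grey points are the 12018 promoters with a peak in either library, coloured symbols are genes of 6 lists, the solid line marks equal ranks and the dashed lines 15 points on each side. Most points lie between the dashed lines, 641 promoters are at 0 on the x axis and 252 at 0 on the y axis, and most *Hox* genes lie below the lines.

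The *Hox* clusters had the lowest medians of the gene lists. HOX proteins are homeobox transcription factors, and the A cluster genes *Hoxa7*, *Hoxa9* and *Hoxa10* are the programme that NUP98 fusions keep active in immature cells. Of 11 *Hoxa* genes, 8 had a promoter peak in either library, with a median of −28.5 points against −0.06 over all 12018 promoters. Of the 8, 6 ranked lower in *GFI1-KD* and 1 higher, against 3.31% and 7.98% of all promoters. *Hoxa9* ranked 99.3 in *GFI1-36S* and 62.8 in *GFI1-KD*. The summit of its strongest overlapping peak held 223 fragments in *GFI1-36S* and 44 in *GFI1-KD*, a scaled ratio of 0.15 with an interval of 0.10 to 0.20. The *GFI1-36S* summit lay outside the *Hoxa9* window, so this ratio compares different positions. These genes do not count as separate measurements, since *Hoxa3*, *Hoxa7* and *Hoxa9* shared 1 *GFI1-36S* peak of 20.3 kb (chr6:52211038-52231329). In the same span, *GFI1-KD* had 10 peaks that covered 5.89 kb. *Hoxa10*, next to it, ranked 81.1 in *GFI1-36S* and had no peak in *GFI1-KD*, and *Hoxa11* ranked 20.5 against no peak. *Hoxa5* went the other way, with a rank of 42.3 in *GFI1-KD* and none in *GFI1-36S*.

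The other clusters showed the same order. Of 9 *Hoxc* genes, 4 had a peak, all in *GFI1-36S* alone, against 2.1% of all promoters. *Hoxc5* ranked 78.7, *Hoxc6* 77.2, *Hoxc4* 68.9 and *Hoxc9* 42.5. Of 10 *Hoxb* genes, 6 had a peak, 4 ranked lower in *GFI1-KD* and 1 higher, against 3.31% and 7.98% of all promoters. *Hoxb5* ranked 80.6 in *GFI1-36S*, under a peak of 1.95 kb, and 28.6 in *GFI1-KD*, under a peak of 0.221 kb. *Hoxb4*, a self-renewal factor of haematopoietic stem cells, ranked 92.5 and 84.9. The broad site in the *Hoxc5* intron shown above (chr15:102997506-103001810) ranked 86.4 in *GFI1-36S* and had no peak in *GFI1-KD*, while each of the other 4 libraries listed a peak there.

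The low *Hox* ranks were not shared by the second *GFI1-KD* library. *Hoxa9* ranked 99.7 in *GFI1-KD* curcumin, 99.8 in *GFI1-36N* vehicle and 99.9 in *GFI1-36N* curcumin. *Hoxc5* ranked 94.3, 99.0 and 99.8 in these libraries. The *GFI1-KD* vehicle library was therefore the low one among these 5 at both genes, and the part of genotype, treatment and the individual library cannot be told apart. The library labelled *GFI1-36S* curcumin had no peak at either promoter, so that with the *GFI1-36S* libraries exchanged the direction turned at *Hoxa9*, with 62.8 points, *Hoxa7*, with 52.2, *Hoxa3*, with 57.0, and *Hoxb5*, with 28.6. With the summit required inside the window, *Hoxa9* and *Hoxa3* also turned, to 62.8 and 57.0, since the summit of the shared *GFI1-36S* peak lay outside both windows.

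Single stem and progenitor genes differed in both directions. Of 25 such genes, 22 had a peak, and the median was −1.74 points. Of the 22, 3 ranked lower and 2 higher in *GFI1-KD*, against 3.31% and 7.98% of all promoters. *Cd34*, a sialomucin of progenitor cells, ranked 74.1 in *GFI1-36S* and 50.7 in *GFI1-KD*, with a scaled fragment ratio of 0.44 (interval 0.28 to 0.69). *Gata2*, a zinc finger factor that maintains stem cells, ranked 86.3 and 71.6, with a ratio of 0.41 (0.30 to 0.57). *Kit*, the stem cell factor receptor, ranked 82.1 and 72.4, with a ratio of 0.54 (0.39 to 0.75). All 3 intervals lie below 1, although *Kit* and *Gata2* stayed within the margin. *Mecom*, which encodes the stem cell factor EVI1, and *Hmga2*, an architectural chromatin protein, each ranked 52.2 in *GFI1-36S* and had no peak in *GFI1-KD*.

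An exception was *Meis1*, which encodes a homeodomain partner of HOX proteins. *Meis1* had no peak in *GFI1-36S* and ranked 63.5 in *GFI1-KD*, with 45 fragments at its summit (chr11:19018204-19020458). *Mycn*, a MYC family factor, ranked 28.6 in *GFI1-KD* alone. At *Meis1*, both distal sites within 60 kb were listed in *GFI1-KD* alone too, whereas the 6 at *Kit* were listed in *GFI1-36S* alone. *Meis1* ranked 61.4 in *GFI1-KD* curcumin and 69.0 in *GFI1-36N* vehicle, and had no peak in *GFI1-36N* curcumin and in the library labelled *GFI1-36S* curcumin. With the *GFI1-36S* libraries exchanged, *Cd34* turned to 50.7 points, *Gata2* to 71.6 and *Kit* to 72.4, as that library had no peak at these genes, and the list median became 58.4.

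GFI1 target genes as a list differed little. The list holds 20 genes bound or repressed by GFI1 in blood cells, among them *Meis1*, *Hoxa9* and *Elane*, and it was written with earlier results of these data known. All 20 had a peak, and the median was 0.81 points against −0.06 over all promoters. By the margin, 2 ranked higher, *Meis1* among them, and 1 lower (*Hoxa9*), against 7.98% and 3.31% of all promoters. *Cebpe*, a factor of late granulocyte maturation, ranked 81.4 in *GFI1-KD* and 78.2 in *GFI1-36S*. The distal sites nearest to these genes showed a wider split: of 87 sites, 38 (43.7%) were listed in *GFI1-KD* alone, compared with 13 (14.9%) in *GFI1-36S* alone, against 31.4% and 25.3% of all distal sites. None of the 18 promoters of the corepressor complexes through which GFI1 acts, such as those of LSD1, CoREST and NuRD, differed by the margin, and their median was 0.16 points. Their median rank in *GFI1-36S* was 91.0, close to the upper end of the scale, which limits a rise there.

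Promoters of neutrophil genes leaned to *GFI1-KD*, apart from those of the primary granules. Of 24 neutrophil genes, 22 had a peak, and 17 of them had a rank above that of *GFI1-36S*, against 48.9% of all promoters, with a median of 6.64 points. By the margin, *Ltf*, *Mmp9* and *Ly6g* ranked higher and none lower, against 7.98% and 3.31% of all promoters. *Ltf*, which encodes the secondary granule protein lactoferrin, ranked 47.3 in *GFI1-36S* and 75.4 in *GFI1-KD*, and its summit held 25 and 80 fragments. Its ratio was 2.36 (interval 1.49 to 3.85), and a single *GFI1-KD* peak of 7.59 kb faced 5 *GFI1-36S* peaks that covered 2.36 kb. *Mmp9*, the gelatinase of tertiary granules, ranked 50.0 and 71.9. *Ly6g*, the surface antigen of mature mouse neutrophils, had no peak in *GFI1-36S* and ranked 48.3 in *GFI1-KD*. The alarmin genes *S100a8* and *S100a9* had peaks in both, with ranks of 79.0 and 93.3 for *S100a8* and at 76.3 and 89.2 for *S100a9*.

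Among further genes of maturing granulocytes, all within the margin, the antimicrobial genes *Ngp* and *Camp* had ratios of 1.78 (1.31 to 2.45) and 1.66 (1.13 to 2.49), and *Retnlg*, a resistin-like secreted protein, had 1.54 (1.07 to 2.23). The primary granule genes, made by promyelocytes, were on the other side. *Mpo*, which encodes myeloperoxidase, ranked 82.3 in *GFI1-36S* and 68.7 in *GFI1-KD*, with a ratio of 0.58 (0.42 to 0.79). *Ctsg*, for cathepsin G, had a ratio of 0.69 (0.49 to 0.96), and *Elane*, for neutrophil elastase, 0.69 (0.41 to 1.16), whose interval includes 1. With the *GFI1-36S* libraries exchanged, the differences turned to 68.7 points at *Mpo*, 69.2 at *Ctsg* and 49.0 at *Elane*, and with the summit required inside the window that at *Mpo* turned to 48.2. The grouping into late and early stages was made after the values were seen.

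In the other libraries the late genes were mostly unlisted. *Ltf*, *Mmp9*, *Ly6g* and *Retnlg* had no promoter peak in any of the 4, and in *GFI1-KD* curcumin *S100a9*, *Ngp* and *Camp* had none either. The median over the 22 neutrophil genes was 74.5 in *GFI1-KD* vehicle, 71.7 in *GFI1-36S* vehicle, 67.8 in *GFI1-36N* curcumin, 59.7 in *GFI1-36N* vehicle and 41.2 in *GFI1-KD* curcumin. The 2 vehicle libraries compared here had the highest medians of the 6. Among the 5 that listed these genes, the 2 *GFI1-KD* libraries were at both ends. The 22 genes were those with a peak in either of the 2 compared libraries, and an unlisted gene counted as 0. That choice favours these 2 libraries, so their place above the other 4 carries no conclusion. The call at *Ltf* also depended on where the summit lay: with the summit required inside the window, *Ltf* turned to −45.9 points and *S100a9* to −28.3.

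**Figure D3:**
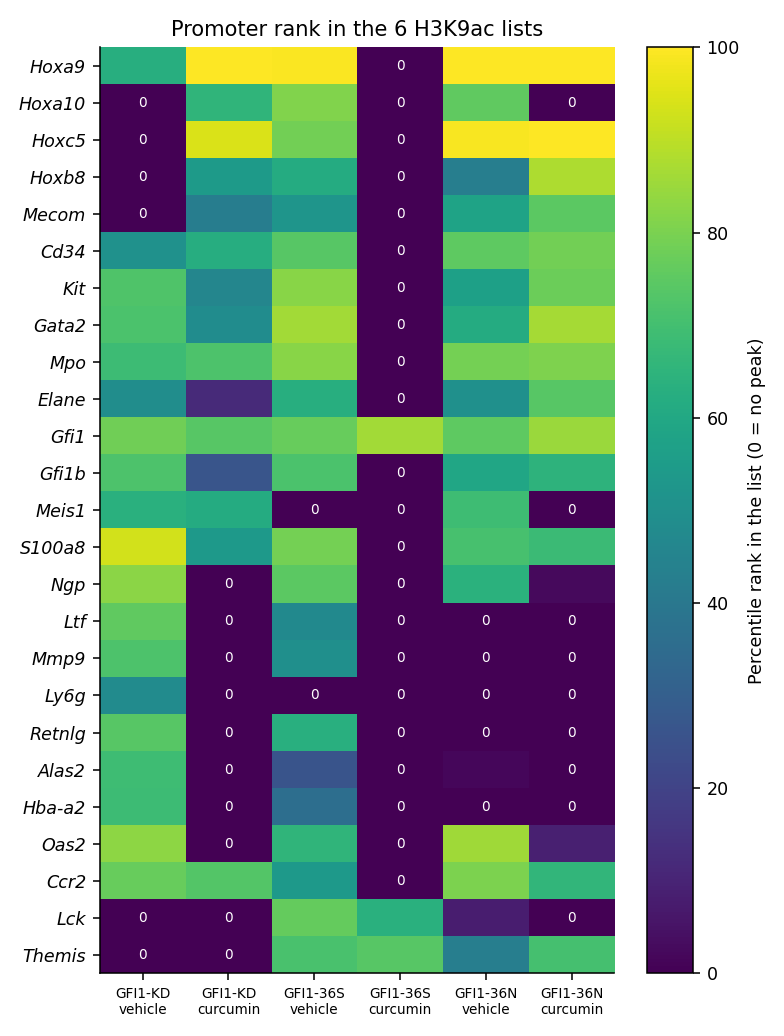
Rank of the promoter peak of selected genes (rows) in each of the 6 libraries (columns, 1 library per group), as colour from dark for 0, which is written in the cell and means no peak, to yellow for 100. *Hoxa9* and *Hoxc5* are low in *GFI1-KD* vehicle and the library labelled *GFI1-36S* curcumin, and only *GFI1-36S* vehicle and *GFI1-KD* vehicle have a peak at the *Ltf* promoter.

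Monocyte genes and chemokine receptor genes were examined next. Of 23 monocyte and macrophage genes, all had a peak in both libraries, 3 ranked higher and 1 lower, against 7.98% and 3.31% of all promoters, and the median was 2.61 points. *S100a4*, a calcium-binding protein of motile cells, ranked 62.8 against 31.4, and *Fcgr1*, the high-affinity IgG receptor, 69.8 against 47.3. *Ccr2*, the chemokine receptor that brings monocytes out of the BM, ranked 76.6 against 54.2, with a ratio of 2.39 (1.55 to 3.80), although with the summit required inside the window it turned to −54.2 points. Of 22 chemokine receptor genes, 16 had a peak, 6 ranked higher and 1 lower, with a median of 10.1 points. *Fpr1* and *Fpr2*, receptors for bacterial formyl peptides, ranked 70.8 against 42.9 and 76.9 against 51.1. *Cxcr1*, an interleukin-8 receptor gene, was the exception, with 36.2 in *GFI1-36S* and no peak in *GFI1-KD*.

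Interferon-stimulated genes had a small positive median. Of 56 such genes, 50 had a peak, 41 of the 50 had a rank above that of *GFI1-36S*, against 48.9% of all promoters, and the median was 3.32 points. By the margin, 4 ranked higher, against a background of 7.98%, and none lower. Of the 4, 3 were 2′-5′ oligoadenylate synthetases, which activate RNase L in virus-infected cells, with *Oas1a* at 77.7 against 52.2, *Oas2* at 82.9 against 65.3 and *Oas1g* at 52.2 against no peak. The ratio was 2.54 (1.64 to 4.05) at *Oas1a* and 2.61 (1.80 to 3.86) at *Oas2*. *Rtp4*, an interferon-induced receptor transporter protein, ranked 86.7 against 70.6, with a ratio of 2.27 (1.65 to 3.16). *Oas1a*, *Oas2* and *Rtp4* ranked 81.2, 85.7 and 87.3 in *GFI1-36N* vehicle, close to *GFI1-KD* vehicle, and had no peak in *GFI1-KD* curcumin. The *Oas* genes are neighbours of similar sequence on chromosome 5, and how reads shared between them were treated is not given in the sources used here. The 19 genes of MHC class I, also an interferon-responsive group, had a median of 1.12 points and none past the margin. Their median rank in *GFI1-36S* was 91.1, which limits a rise.

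Of 36 erythroid genes, 34 had a peak, and the median was 1.66 points. Of the 34, 5 ranked higher and none lower, against 7.98% and 3.31% of all promoters. Among the 5 were *Aqp1*, a water channel of red cells, and the globin genes *Hba-a1*, *Hba-a2* and *Hbb-bt*. *Aqp1* had no peak in *GFI1-36S* and ranked 78.6 in *GFI1-KD* (chr6:55335717-55342053), while with a window of 3 kb the difference was 58.1 points. Ranks were moderate at the globin genes, for *Hba-a2* 68.6 against 36.2 and for *Hbb-bt* 58.6 against 26.1. *Hba-a1* and *Hba-a2* are near-identical copies, so reads can be split between them, and at *Hba-a1* both summits held 42 fragments, a ratio of 0.74 (0.47 to 1.16). *Alas2*, the first enzyme of heme synthesis in erythroid cells, ranked 69.0 against 26.1, with a ratio of 2.06 (1.22 to 3.63), while the median over the heme enzymes was −0.29 points. The regulators *Klf1* and *Gata1*, which switch on the erythroid programme, had ratios of 0.82 (0.65 to 1.04) and 0.74 (0.47 to 1.15), whose intervals include 1, and with the *GFI1-36S* libraries exchanged their differences turned from −4.96 to 23.4 and from −7.18 to 62.1 points. Of 20 megakaryocyte genes, 10 had a peak and 3 ranked higher, among them *Itga2b*, the platelet integrin αIIb, at 55.1 against 20.5. With a window of 3 kb, the difference at *Itga2b* was 0.35 points.

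Lymphoid promoters with a peak were few in both libraries and differed by lineage. Of 24 T-cell genes, 11 had a peak, 5 in *GFI1-36S* alone and 1 in *GFI1-KD* alone, against 2.1% and 5.33% of all promoters. By the margin, 6 ranked lower and 1 higher, against 3.31% and 7.98%, and the median was −16.1 points. *Lck*, the kinase of the T-cell receptor, ranked 76.4 in *GFI1-36S* and had no peak in *GFI1-KD*, but with a window of 3 kb the difference was −0.1 points. *Themis*, a thymocyte selection factor, ranked 71.2, and *Cd247*, the zeta chain of the receptor, 49.0, both with no peak in *GFI1-KD*. The defining genes *Cd3e*, *Cd3d*, *Cd3g*, *Cd4*, *Cd8a* and *Bcl11b* had no promoter peak in either library. Of 21 B-cell genes, 9 had a peak, all 9 in *GFI1-KD* and 4 in *GFI1-36S*. *Ebf1*, a specification factor of B cells, and *Blnk*, a B-cell receptor adaptor, ranked 56.3 and 63.5 in *GFI1-KD* alone, whereas *Pax5* and *Ms4a1* had no peak in either library. In the other 4 libraries, at most 4 of the 9 B-cell genes had a peak. The 9 were chosen by a peak in either compared library, so B-cell genes listed only elsewhere were not counted. These counts therefore do not rank the libraries. With the *GFI1-36S* libraries exchanged, the T-cell median was −63.5 points, as all 11 T-cell genes had a peak in that library.

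Among the antigen-presenting MHC class II genes, 13 of 14 had a peak, 4 of them in *GFI1-KD* alone, against 5.33% of all promoters. *H2-Aa*, a class II chain, ranked 65.3, *Cd74*, the invariant chain, 58.0, *Ciita*, the class II transactivator, 28.6, and *H2-Eb1*, a further chain, 22.1. The median of the list was −0.11 points, since the other 9 members differed little. *H2-Aa* and *Cd74* also had peaks in *GFI1-36N* vehicle, with ranks of 52.2 and 55.3. The share of B cells, T cells and antigen-presenting cells in these marrows was not measured here.

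**Figure D4:**
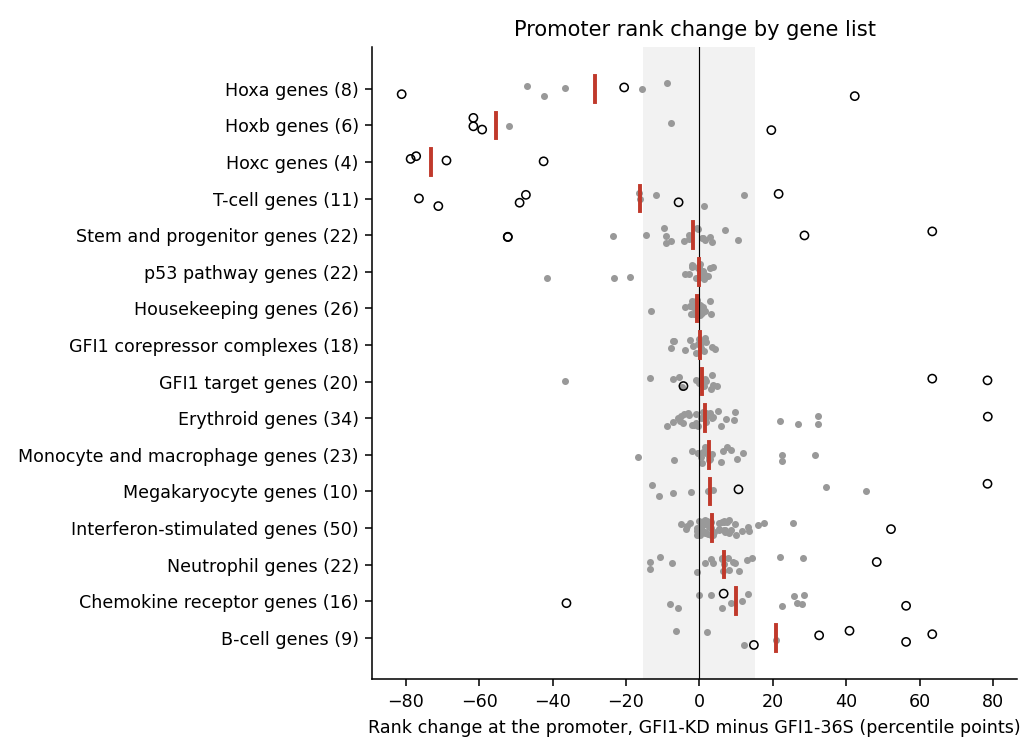
Difference in promoter rank (*GFI1-KD* minus *GFI1-36S*, x axis, points) of each gene with a peak in either vehicle library, by gene list (y axis). Each symbol is 1 gene, open where 1 library alone had the peak, the grey band marks differences under 15 points, and the red bar is the median of the list, which runs from −73.1 for *Hoxc* genes to 20.8 for B-cell genes.

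*Cdkn2a* and *Cdkn2b*, which encode cell cycle inhibitors, ranked lower in *GFI1-KD*. Of 24 genes of the p53 and senescence pathway, 22 had a peak, with a median of 0.0046 points. Of the 22, 3 ranked lower and none higher, against 3.31% and 7.98% of all promoters. *Cdkn2a*, which encodes p16INK4a and p19ARF, ranked 90.5 in *GFI1-36S* and 67.3 in *GFI1-KD*, with a ratio of 0.28 (0.20 to 0.39). *Cdkn2b*, its neighbour that encodes p15INK4b, ranked 81.1 and 39.5, with a ratio of 0.24 (0.15 to 0.37). *Phlda3*, an inhibitor of AKT signalling, ranked 68.9 and 50.0. *Cdkn2a* was lowest in *GFI1-KD* vehicle among all 6 libraries, and ranked between 72.3 and 81.2 in the 4 others. *Cdkn2b* ranked 38.1 in *GFI1-KD* curcumin, 42.8 in *GFI1-36N* vehicle and 73.7 in *GFI1-36N* curcumin, and with the *GFI1-36S* libraries exchanged it turned to 39.5 points, as that library had no peak there. Of 36 cell cycle and replication genes, 35 had a peak and 1 ranked higher, which was *Ccnd1*, the gene of cyclin D1, with 71.9 in *GFI1-KD* and no peak in *GFI1-36S*. A *GFI1-36S* peak of rank 33.7 lay just outside the window, and with a window of 3 kb the difference at *Ccnd1* was 38.2 points. *Srxn1*, an NRF2 target that repairs oxidized peroxiredoxins, ranked 87.2 against 65.3, with a ratio of 3.26 (2.27 to 4.80). It was the 1 of 24 NRF2 genes past the margin.

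Several programmes did not differ by the margin at any promoter. These were the 27 epigenetic regulators mutated in myeloid leukaemia, 20 histone acetyltransferases, 15 of 18 histone deacetylases with a peak, 23 of 24 glycolysis genes, 22 cholesterol synthesis genes, 25 of 26 immediate early genes and 26 of 28 housekeeping genes. Their medians lay between −0.81 points for the acetyltransferases and 2.80 for the immediate early genes. Ranks at the acetyltransferase promoters were high, with a median of 92.1 in *GFI1-KD* and 94.7 in *GFI1-36S*. Over these lists the median rank in *GFI1-36S* lay between 82.7 for cholesterol synthesis and 96.1 for housekeeping genes. Near the upper end of the scale a rise by the margin is limited or impossible. The lack of higher calls in these lists therefore carries no conclusion. NF-κB pathway genes had a median of 2.06 points with 3 of 25 higher, Notch and Wnt genes 1.01 with 5 of 25 higher and 2 lower, and integrins and adhesion genes 1.53 with 4 of 21 higher and 1 lower. Of all promoters, 7.98% ranked higher and 3.31% lower.

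The single promoters with the widest differences belonged to no common list. Where both libraries listed a peak, *Arhgap12*, a GTPase-activating protein, ranked 80.7 in *GFI1-KD* and 5.66 in *GFI1-36S*, with 114 and 16 fragments at the summit. That promoter ranked 76.6 to 84.3 in the other 4 libraries, so *GFI1-36S* vehicle was the low one. *Smpdl3b*, a membrane phospholipase, ranked 73.5 against 7.91, and *Hist1h1t*, a testis-type linker histone, 89.9 against 31.4. The 7 others were *Zfp938*, *Galm*, *Spatc1*, *Trim5*, *Tmem159*, *Adgrl4* and *Fcrl1*, by 58.5 to 75.0 points over all 10. *Spatc1* and *Hist1h1t* turned to −7.11 and −31.4 points with the summit required inside the window. With a window of 3 kb they differed by 4.98 and 0.47 points.

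In the other direction, *Slc26a1*, a sulfate transporter, ranked 1.10 in *GFI1-KD* against 74.1, and *Cyp2j9*, a cytochrome P450 enzyme, 0.39 against 68.2. *Flt1*, a VEGF receptor, ranked 6.62 against 67.6, and *Podxl*, a sialomucin of progenitor and endothelial cells, 10.7 against 72.4. The other 6 were *Adamtsl5*, *Insl6*, *Slc39a4*, *Espn*, *Tlr12* and *Eva1c*. The fragment ratio of the 10 lay between 0.29 and 0.47. *Flt1* had no peak in *GFI1-KD* curcumin and ranked 50.3 in *GFI1-36N* vehicle. With the *GFI1-36S* libraries exchanged, *Arhgap12* and 8 of these 10 turned, to at most 10.7 points.

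The strongest promoter peaks in *GFI1-KD* alone were at *Tmem88*, a membrane protein that restrains Wnt signalling, with a rank of 93.0, at *Bricd5* with 90.7, and at *Oscar*, an osteoclast-associated immune receptor of myeloid cells, with 88.8. They were followed by *Plcb1*, a phospholipase C, with 86.2, *Zcchc3* with 86.0, *Zfp948* with 83.9, the tyrosine kinase gene *Fer* with 81.7 and *Kbtbd12* with 81.1. For the first 3 the peak lay at the edge of the window: with 3 kb on each side, *Tmem88* and *Bricd5* turned to −3.18 and −2.87 points and *Oscar* differed by 1.6. In *GFI1-36S* alone, the strongest were at developmental genes, *Mab21l2* with 89.5 under a peak of 6.53 kb, *Irx5* with 83.2 and *Pax6* with 79.8, and at *Mn1*, a transcriptional coactivator overexpressed in AML, with 84.9 under a peak of 9.47 kb. *Esr1*, the oestrogen receptor, ranked 85.1, *Tmem253* 83.7 and *Tmem88b* 79.0. With 3 kb on each side, *Irx5* differed by −4.05 points, *Tmem88b* by −2.37 and *Tmem253* by less than either. At these genes *GFI1-KD* thus listed a peak of similar rank outside the window of 1 kb. The differences at *Mab21l2*, *Esr1*, *Mn1* and *Pax6* stayed the same with 3 kb. *Mn1* had no peak in any other library, whereas *Mab21l2* ranked 98.4 and 99.0 in the *GFI1-36N* libraries and 65.9 in *GFI1-KD* curcumin.

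Distal sites differed more than promoters. Merging the peaks of both libraries gave 47263 sites, of which 32080 lay over 1 kb from every annotated TSS. Of these, 13913 (43.4%) were listed in both libraries, 10058 in *GFI1-KD* alone and the remaining 8109 in *GFI1-36S* alone, against 82.4% of 15183 promoter sites listed in both. *GFI1-KD* held 55.4% of the distal sites listed in 1 library, with an interval of 54.6% to 56.1%. These sites were narrow and low, with a median width of 319 bp and a rank of 22.1 in *GFI1-KD* and 264 bp and 23.1 in *GFI1-36S*, against 761 bp and 49.9 for shared ones. Of the sites in *GFI1-KD* alone, 52.4% were listed in none of the other 4 libraries, and of those in *GFI1-36S* alone 41.7%, against 9.98% of the shared sites. Introns held 63.2% and 62.5% of them. Among the 13913 shared sites, 2846 ranked higher in *GFI1-KD*, or 20.5%, and 2347 lower, or 16.9%. The SD of the difference was 19.2 points at shared distal and 10.6 at shared promoter sites. Shared promoter sites had a median rank of 83.6 in *GFI1-KD*, close to the upper end of the scale, which limits a rise there.

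Distal sites were grouped by the gene of the nearest promoter. Over all distal sites, 31.4% were in *GFI1-KD* alone, compared with 25.3% in *GFI1-36S* alone. Of 84 sites at neutrophil genes, 41 (48.8%) were listed in *GFI1-KD* alone, compared with 6 (7.14%) in *GFI1-36S* alone. The 6 distal sites within 60 kb of *Mmp9* and the 3 of *Ltf* were all in *GFI1-KD* alone. Of 63 sites at interferon-stimulated genes, 34 (54.0%) were in *GFI1-KD* alone, compared with 9 (14.3%) in *GFI1-36S* alone, and of 114 at erythroid genes 49 (43.0%) and 16 (14.0%). Stem and progenitor genes had the opposite split, with 39 (21.3%) of 183 sites in *GFI1-KD* alone, compared with 68 (37.2%) in *GFI1-36S* alone. At T-cell genes, 5 (12.8%) of 39 sites were in *GFI1-KD* alone, compared with 25 (64.1%) in *GFI1-36S* alone, and at *Hoxc* genes all 5 were in *GFI1-36S* alone. The splits also differed among lists with no promoter past the margin, with 37.1% and 20.0% of 70 sites at housekeeping genes, 50.0% and 20.8% of 48 at acetyltransferase genes, 31.9% and 27.7% of 47 at deacetylase genes and 22.9% and 24.7% of 166 at epigenetic regulators. NK-cell genes had 12.5% and 29.2% of 24 sites. Sites of 1 gene are not independent, and the nearest promoter need not be the target.

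**Figure D5:**
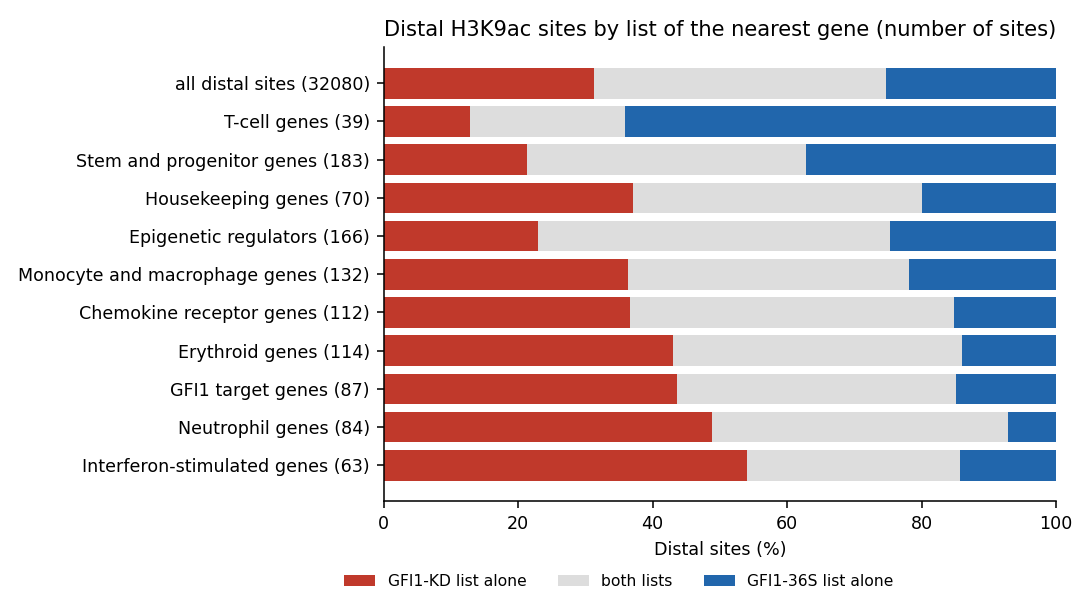
Share of the distal sites nearest to the genes of each list (x axis, percent) that were listed in *GFI1-KD* alone (red), in *GFI1-36S* alone (blue) or in both vehicle libraries (grey), with all 32080 distal sites on top. Neutrophil genes have 48.8% in *GFI1-KD* alone but 7.14% in *GFI1-36S* alone, and T-cell genes 12.8% and 64.1%.

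Among single distal sites, the highest in *GFI1-KD* alone was the *Crtac1* intron site near *Golga7b*, with a rank of 81.1 and 117 fragments, also listed in *GFI1-36N* vehicle. It was followed by a site in an exon of *Mdga1* with 77.8 and a site 36.8 kb upstream of *1700017B05Rik* with 75.4. The highest in *GFI1-36S* alone was 33.2 kb upstream of *Pum2*, with a rank of 96.5 and 179 fragments, listed otherwise only in the library labelled *GFI1-36S* curcumin. A site in *Catsperd* ranked 94.2 and was listed in each of the other 4 libraries. Shared sites with the widest differences were in an intron of *Sox13*, with 75.1 against 2.31, in an exon of *Bysl* near the cyclin gene *Ccnd3*, with 66.1 against 0.42, and 1.60 kb upstream of *Ccnd1*, with 66.0 against 0.88. In the other direction, a site 155 kb upstream of *Hapln1* ranked 2.26 in *GFI1-KD* and 83.1 in *GFI1-36S*.

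Of the broad distal sites, those of at least 4 kb, 76 were listed in both libraries, 8 in *GFI1-36S* alone and 1 in *GFI1-KD* alone. The 8 were in introns of *Ascc3*, *Adk*, *Hoxc5*, *9930021J03Rik*, *Zcchc7* and *Phip*, with widths of up to 12.1 kb at *Zcchc7*. Of these 8, 7 were listed in 3 of the other 4 libraries, including *GFI1-KD* curcumin, and the *Hoxc5* site in all 4. *GFI1-KD* vehicle and, at 7 of them, the library labelled *GFI1-36S* curcumin were thus the libraries without them.

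Motifs were searched under the distal summits. In 300 bases centred on the summit, the GFI1 core occurred in 3.70% of the sites in *GFI1-KD* alone, 3.72% of those in *GFI1-36S* alone and 3.10% of the shared ones. The RUNX motif occurred in 24.4%, 23.9% and 23.2%, the C/EBP motif in 11.9%, 12.3% and 12.1%, and the PU.1 motif in 11.5% (10.9 to 12.1), 12.2% (11.5 to 12.9) and 12.8% (12.2 to 13.3). The GATA motif occurred in 14.2% (13.5 to 14.9), 15.3% (14.5 to 16.1) and 13.7% (13.2 to 14.3), so that the intervals of the sites in *GFI1-36S* alone and the shared ones lie apart. The AP-1 motif TGANTCA occurred in 9.20%, 8.71% and 9.14%. For the interferon motif GAAANNGAAA (ISRE), the shares were 5.09% (4.68 to 5.54), 6.47% (5.96 to 7.03) and 7.09% (6.67 to 7.53), so that the sites in *GFI1-KD* alone held it least often, with intervals apart from both other classes. The median GC content was 47.7%, 47.3% and 49.3%. A match is a run of letters and not a bound site, and the ISRE also occurred in 3.44% of RefSeq promoters.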

How the data were processed

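H3K9ac ChIP-seq peak lists of the 2 vehicle libraries were compared, and the 4 other lists were read for single values. Per the labels and the paper's methods, the authors trimmed reads with Trim Galore, mapped them to mm10 with BWA, called the peaks of every library on its own with MACS2 and removed black list regions. Versions, the control of each list and the threshold are not given in the sources used here. Fold enrichment in the deposited lists is summit fragments over local background, a ratio. The deposited −log10 p and −log10 q and the integer score were written by the authors' peak caller. None is normalized between libraries, so ranks within a list were used. The input and rabbit IgG control samples were not used here.

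Promoters were 1 kb up- and downstream of the TSSs of protein-coding genes in GENCODE M21, and overlap meant at least 1 bp. Distal sites were merged peaks over 1 kb from every TSS. Fragments at a summit were recovered from the relation of fold enrichment and p, with a tolerance of 0.002 on the −log10 p scale, and give a depth relative to the control of 1.19 in *GFI1-KD* and 1.12 in *GFI1-36S*. Ratios of fragments carry exact (Clopper-Pearson) and shares Wilson 95% intervals. Promoter sequences are those of RefSeq. Python 3.11.15, numpy 2.4.6, pandas 2.3.3, scipy 1.17.1, pysam 0.24.0 and matplotlib 3.10.9 were used, and the steps were tested on simulated data. The comparison, the gene lists and their members were chosen with earlier results of these data known. Genes were named as *Gfi1* and *Gfi1b*, members of the lists, the 10 promoters with the widest difference in each direction and the 8 with the highest-ranked peak in each library alone, and distal sites likewise, 8 in each library alone and 6 in each direction. Some of these are not reported here. Alternatives tried were peaks with a −log10 q of 5 or more, equal numbers of top peaks, the exchanged *GFI1-36S* libraries, autosomes, ranks by −log10 p or among promoter peaks, a window of 3 kb, the summit inside the window, all biotypes, genes with a peak in both lists, a margin of 25 points, an overlap of 50% of the shorter peak and distal sites over 3 kb from a TSS.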

Additional observations from a re-analysis of the deposited data

How the results depend on the processing

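The share of promoters listed in 1 library alone that *GFI1-KD* held, 71.8%, was 74.7% at a −log10 q of at least 5, 66.7% with the summit inside the window, 65.5% with all biotypes and 92.0% with the *GFI1-36S* libraries exchanged. The count of promoters ranked higher, 959, was 414 for genes with a peak in both lists, 1545 with all biotypes and 5529 on the exchange. The count ranked lower, 398, was 202, 788 and 261 under these, 737 ranked among promoter peaks and 261 at a margin of 25 points. The covered share, higher by 1.85 percentage points in *GFI1-KD*, was higher by 13.6 on the exchange. For distal sites, the *GFI1-KD* share of 55.4% was 59.3% at a −log10 q of at least 5, 59.7% with equal numbers of top peaks and 86.5% on the exchange. Shared distal sites ranked higher, 2846, numbered 1801 at that q, 1497 at a margin of 25 points and 1780 on the exchange, and those ranked lower, 2347, numbered 1103, 1192 and 212. On the exchange, the medians of 31 gene lists moved by over 5 points and that of 3 did not, the *Hoxa* median turned to 47.3 points, and single genes turned to 62.8 (*Hoxa9*), 57.0 (*Hoxa3*), 52.2 (*Hoxa7*), 28.6 (*Hoxb5*), 50.7 (*Cd34*), 39.5 (*Cdkn2b*), −3.62 (*Arhgap12*), 1.10 (*Slc26a1*), 0.39 (*Cyp2j9*), 6.62 (*Adamtsl5* and *Flt1*), 6.73 (*Insl6*), 10.7 (*Podxl*), 2.97 (*Espn*) and 1.80 (*Eva1c*). Genes within the margin turned too, to 72.4 (*Kit*), 71.6 (*Gata2*), 68.7 (*Mpo*), 69.2 (*Ctsg*), 49.0 (*Elane*), 62.1 (*Gata1*), 23.4 (*Klf1*), 1.68 (*Hoxb4*) and −8.17 (*Gfi1*). With the summit inside the window, *Hoxa9* and *Hoxa3* turned to 62.8 and 57.0, *Ltf* to −45.9, *Ccr2* to −54.2, *Hist1h1t* to −31.4, *Spatc1* to −7.11, *Gfi1* to −76.7, *S100a9* to −28.3 and *Mpo* to 48.2. With a window of 3 kb, *Tmem88* and *Bricd5* turned to −3.18 and −2.87. *Irx5* and *Tmem88b* moved to −4.05 and −2.37 without turning, and *Tmem253* moved closer still to equal ranks. The exchange puts a library with 20354 peaks in place of one with 41312, and the cause of the other moves was not tested. Leaving out a replicate was not possible with 1 library per group. No paired analysis was possible because the labels carry no replicate numbers and each group has 1 library. Weak peaks rest on few fragments, with a median of 30 at the promoters that *GFI1-KD* alone listed and 22 at those of *GFI1-36S*, so that a rank of 0 there says only that no peak passed the caller's threshold.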
